A study of Mus musculus with 24 samples.

Results

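The semaphorins, plexins and neuropilins are 31 of the 22889 gene entries of the deposited table. They were taken by symbol, as every entry named as a semaphorin of classes 3 to 7, every entry named as a plexin of the A, B, C or D families, and *Nrp1* and *Nrp2*. The set holds 20 semaphorins (7 of class 3, 6 of class 4, 2 of class 5, 4 of class 6 and *Sema7a*), 9 plexins (4 of the A and 3 of the B family, *Plxnc1* and *Plxnd1*) and 2 neuropilins. All 31 were above 0 in at least 1 sample and all 31 were tested in each comparison.

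Expression was measured in 24 samples of motor neuron cultures made from mouse embryonic stem cells. Oculomotor (OMN) cultures came from the Islet1-GFP/NesEPhox2A line, which carries GFP driven by *Islet1* and *Phox2a* under the nestin enhancer, an element active in neural progenitors, and they received 250 nM SAG, a Smoothened agonist, and 100 ng/ml FGF8 for 5 days. Spinal (SC) cultures came from the Hb9-GFP line, with GFP driven by *Hb9* (*Mnx1*) and no *Phox2a* transgene named, and they received 500 nM SAG and 100 nM retinoic acid for 5 days. Each culture was sorted into GFP-positive and GFP-negative cells, giving 4 groups of 6 replicates, and each fraction was sequenced as 1 bulk SMART-seq2 library of poly(A) RNA. Line, reporter, transgene and patterning factors changed together between the cultures, so their effects cannot be told apart. The labels do not say whether replicates were separate differentiations, so p-values measure the spread between these samples.

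Semaphorins are guidance cues, secreted in class 3 and held at the membrane in classes 4 to 7, that repel or attract growing axons and migrating cells. Plexins are their signaling receptors. Most class 3 semaphorins reach A-family plexins through the neuropilins as ligand-binding co-receptors, class 6 semaphorins bind A-family plexins directly, class 4 semaphorins bind mainly B-family plexins, *Sema7a* binds *Plxnc1* and *Sema3e* binds *Plxnd1* without a neuropilin. Motor neurons use this system to leave the neural tube, to bundle their axons and to choose their targets.

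Values are RPKM, which are reads scaled by transcript length and by the mapped reads of a library, a measure per length that allows levels of different genes to be compared. Depth, as read from the spacing of low RPKM values, was 752529 to 4642207 reads in replicates 1 to 4 and 4822576 to 7675428 reads in replicates 5 and 6, and 1 read of a transcript of 5000 bases was worth 0.026 to 0.266 RPKM. A list of 10 motor neuron markers summed to 379 to 822 RPKM in OMN and 61.4 to 380 RPKM in SC GFP-positive samples, against 7.9 to 89.9 RPKM in the GFP-negative samples of both cultures. In replicate 4 of the SC cultures both fractions were alike in these markers, against their labels. Its GFP-positive sample had *Isl1* at 7.63 RPKM (50.4 to 123 in the other 5) and the neuronal tubulin *Tubb3* at 36.4 RPKM (121 to 785). The progenitor factor *Sox2* was at 132 RPKM there (21.3 to 44.9) and *Mnx1* at 43.1 RPKM (55.8 to 149). Its GFP-negative sample had *Isl1* at 8.56 RPKM, *Tubb3* at 51.5 RPKM and *Sox2* at 137 RPKM. *Mnx1* was at 69.4 RPKM in that sample (0.189 to 4.72 in the other 5). In replicate 2 of the SC cultures, 3 gene models held 68.81% of the summed RPKM of the GFP-negative and 17.79% of that of the GFP-positive sample, which lowers the RPKM of all other genes there. The comparison of the SC fractions is given with and without these samples, and other results keep them unless stated.

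The most abundant member was *Sema4b*, a transmembrane class 4 semaphorin, with a mean of 24.4 RPKM over the 24 samples. It was followed by the B-family receptor *Plxnb2* (mean 10.1 RPKM), the A-family receptor *Plxna1* (8.79 RPKM) and *Plxnb1* (8.76 RPKM). These levels do not order the genes firmly, since *Plxnb2* alone ranged from 1.55 to 37.5 RPKM between samples. At the other end, *Sema3g* and *Plxnb3* stayed below 1 RPKM in every sample, and 3 members (*Sema4b*, *Plxnb1* and *Plxnb2*) were at or above 1 RPKM in every sample. In OMN GFP-positive cells 20 members reached 1 RPKM in at least 3 of 6 samples, in SC GFP-positive cells 19, in OMN GFP-negative cells 15 and in SC GFP-negative cells 16. Ligands and receptors of the system were therefore both present in each of the 4 sorted fractions.

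**Figure D1:**
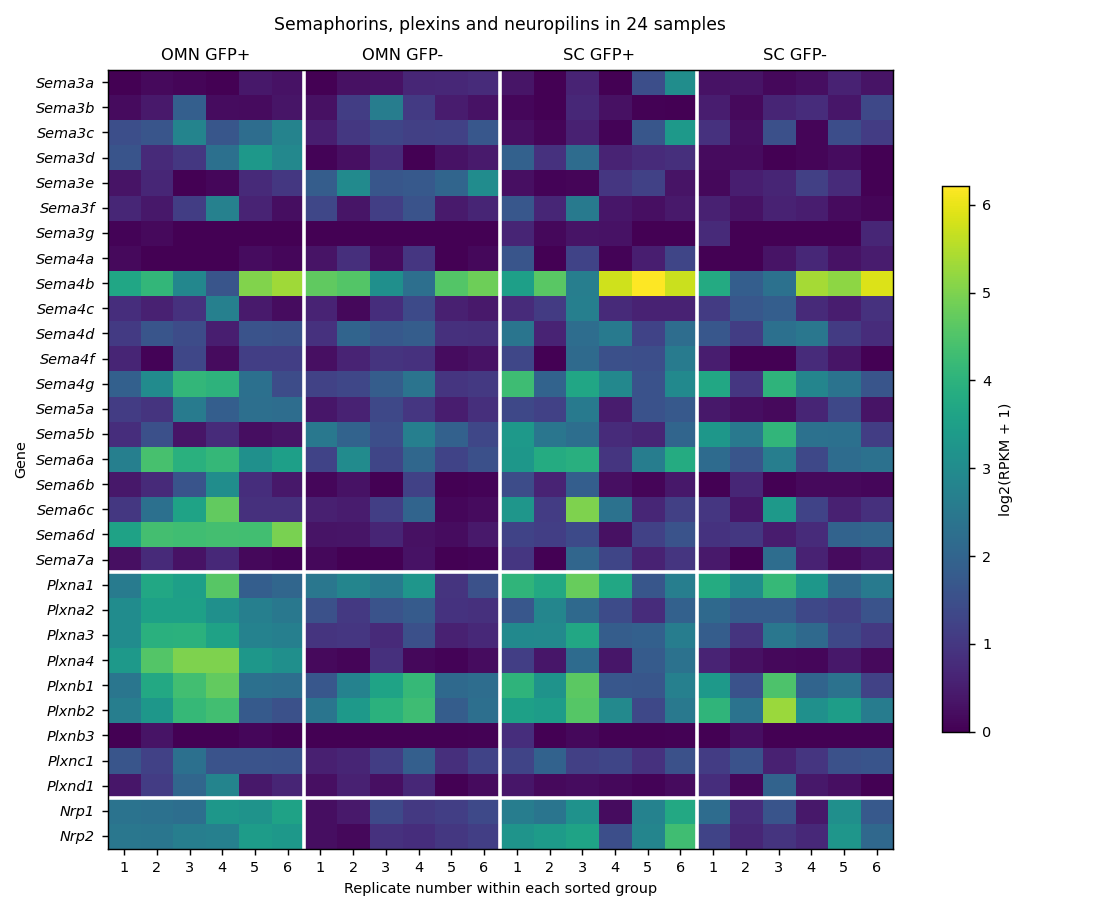
Level of each of the 31 genes (rows, semaphorins above, then plexins, then neuropilins) in each of the 24 samples (columns, by sorted group and replicate number), as log2(RPKM + 1) on the color scale. *Sema6d* and *Plxna4* stand out in the 6 OMN GFP-positive samples and *Sema3e* in the 6 OMN GFP-negative samples, while *Sema4b* is bright in most samples of all 4 groups.

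The first comparison asked which guidance genes differed between OMN and SC motor neurons. In GFP-positive cells, 2 of the 31 members were called at an adjusted p under 0.05, the transmembrane ligand *Sema6d* and the receptor *Plxna4*, both higher in OMN. Of all 19240 genes tested, 0.603% were called (0.353% higher and 0.249% lower in OMN). The median log2 change of the members was -0.03, beside -0.04 over all genes. The unadjusted limma p was under 0.05 for 6 of the 31 members and for 1951 of the 19240 genes. The samples of the groups did not overlap for 3 members (*Sema6d*, *Plxna4* and *Plxnd1*), beside 1.43% of all genes. The 8 postmitotic neuron markers summed to 1290 to 3140 RPKM in OMN and 78.4 to 2120 RPKM in SC GFP-positive cells, and the progenitor marker *Sox9* was called lower in OMN. The 4 pluripotency markers, none of them called, summed to a median of 57.6 RPKM (0.315 to 253) in OMN GFP-positive samples. In SC GFP-positive samples their median sum was 919 RPKM (14.3 to 12400). The part of these markers in the results was not tested. Changes are differences of means on the log2(RPKM + 1) scale, which understates the change of low genes, and were tested with limma and Benjamini-Hochberg adjustment over all genes. The study names *Plxna4* and *Sema6d* as OMN genes and *Sema4a* and *Sema5b* as SC genes from these same samples, so their direction here is not independent evidence. The study also looked at its guidance genes in published microarray data of postnatal mice, which were not used here. There it found that *Sema6d* was preferentially kept in oculomotor neurons.

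*Sema6d*, a class 6 semaphorin that binds A-family plexins, lies on chromosome 2 (GRCm38, 124089969 to 124667770, plus strand). It ran from 11.0 to 30.3 RPKM (median 19.2) in OMN GFP-positive cells and from 0.218 to 2.01 RPKM (median 1.34) in SC GFP-positive cells. Every OMN sample lay far above every SC sample, and the lowest SC value was that of replicate 4. The means were 19.6 ± 6.16 and 1.30 ± 0.601 RPKM (SD, n = 6 each), a ratio of 15.1, with a log2 change of 3.16 (SE 0.31, limma adjusted p = 0.000196). Replicates 1 to 4 gave a change of 3.12, replicates 5 and 6 one of 3.25, and leaving out any 1 sample kept the limma adjusted p between 0.000405 and 0.00116. In the GFP-negative cells the order was the other way, with 0.157 to 0.562 RPKM (median 0.264) in OMN and 0.378 to 3.15 RPKM (median 0.945) in SC samples, a log2 change of -0.82 that was not called (SE 0.30, limma adjusted p = 0.264).

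RefSeq gives *Sema6d* 2 start sites and *Sema3e*, described below, 1. The 250 bases before each start (GRCm38.p6) are printed because these are the genes called between the cultures that have a window in the RefSeq promoter table. The first *Sema6d* window is chr2:124089719-124089968, the second is chr2:124653331-124653580, inside the gene, and the *Sema3e* window is chr5:14025026-14025275. All are on the plus strand. RPKM per gene do not tell the *Sema6d* starts apart.
Sema6d, first start: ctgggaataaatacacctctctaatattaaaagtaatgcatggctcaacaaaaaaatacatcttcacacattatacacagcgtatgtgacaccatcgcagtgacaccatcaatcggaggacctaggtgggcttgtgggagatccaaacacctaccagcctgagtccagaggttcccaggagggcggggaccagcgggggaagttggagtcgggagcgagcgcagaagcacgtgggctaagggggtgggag
Sema6d, second start: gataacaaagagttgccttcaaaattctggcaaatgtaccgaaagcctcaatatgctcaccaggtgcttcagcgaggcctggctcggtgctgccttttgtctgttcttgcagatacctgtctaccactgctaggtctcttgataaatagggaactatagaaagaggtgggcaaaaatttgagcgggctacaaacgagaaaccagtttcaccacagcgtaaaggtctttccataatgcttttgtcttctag
Sema3e: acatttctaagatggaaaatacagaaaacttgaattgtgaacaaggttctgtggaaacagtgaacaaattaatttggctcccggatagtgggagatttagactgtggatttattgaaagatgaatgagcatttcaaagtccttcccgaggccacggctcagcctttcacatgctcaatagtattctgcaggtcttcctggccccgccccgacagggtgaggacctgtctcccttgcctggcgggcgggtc

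Phox2a, Islet1 and Hb9 are homeodomain factors, and proneural factors bind E-boxes, so 3 short words were searched on both strands, from 250 bases before to 50 after the start: TAATTA (a homeodomain core), CATCTG and CAGCTG (E-boxes). A match would have been printed in capitals, and these windows held none. RefSeq gave 37 windows for 26 of the 31 members, and 5 members, *Plxna4* among them, had none. TAATTA was in the windows of 0 members (5.3% of 32851 windows of all genes), CATCTG in those of 2 (*Sema3c* and *Sema4a*; 17.2% of all windows) and CAGCTG in those of 6 (16.3%). The member windows had a median GC content of 63.7%, beside 52.7% over all windows.

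*Plxna4*, an A-family receptor for class 6 semaphorins and, with neuropilins, for class 3, lies on chromosome 6 (GRCm38, 32144268 to 32588192, minus strand). It ran from 7.59 to 31.0 RPKM (median 15.9) in OMN and from 0.290 to 4.04 RPKM (median 1.85) in SC GFP-positive cells, so the groups did not overlap. Its means were 18.3 ± 11.1 and 1.97 ± 1.61 RPKM (SD, n = 6 each), a ratio of 9.31, with a log2 change of 2.68 (SE 0.49, limma adjusted p = 0.0237). Replicates 1 to 4 gave a change of 3.46 and replicates 5 and 6 one of 1.14. The call was lost without OMN replicate 2, 3 or 4 or without SC replicate 1 (limma adjusted p = 0.0549 to 0.0756) and with replicates 1 to 4 alone (0.0507). With the replicate number as a block the call was lost as well (limma adjusted p = 0.0967). It held without SC replicate 4 (log2 change 2.48, limma adjusted p = 0.0453). In GFP-negative cells *Plxna4* was low in both cultures, at 0.0441 to 0.817 RPKM in OMN and 0.0834 to 0.544 RPKM in SC samples. An exon of *Plxna4* overlaps one of the antisense gene *Plxna4os3*, which was not analysed here, and strand was not stated, so reads of the pair cannot be told apart. The antisense *Plxna4os2* was listed at 0 to 6.92 RPKM in OMN GFP-positive cells.

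**Figure D2:**
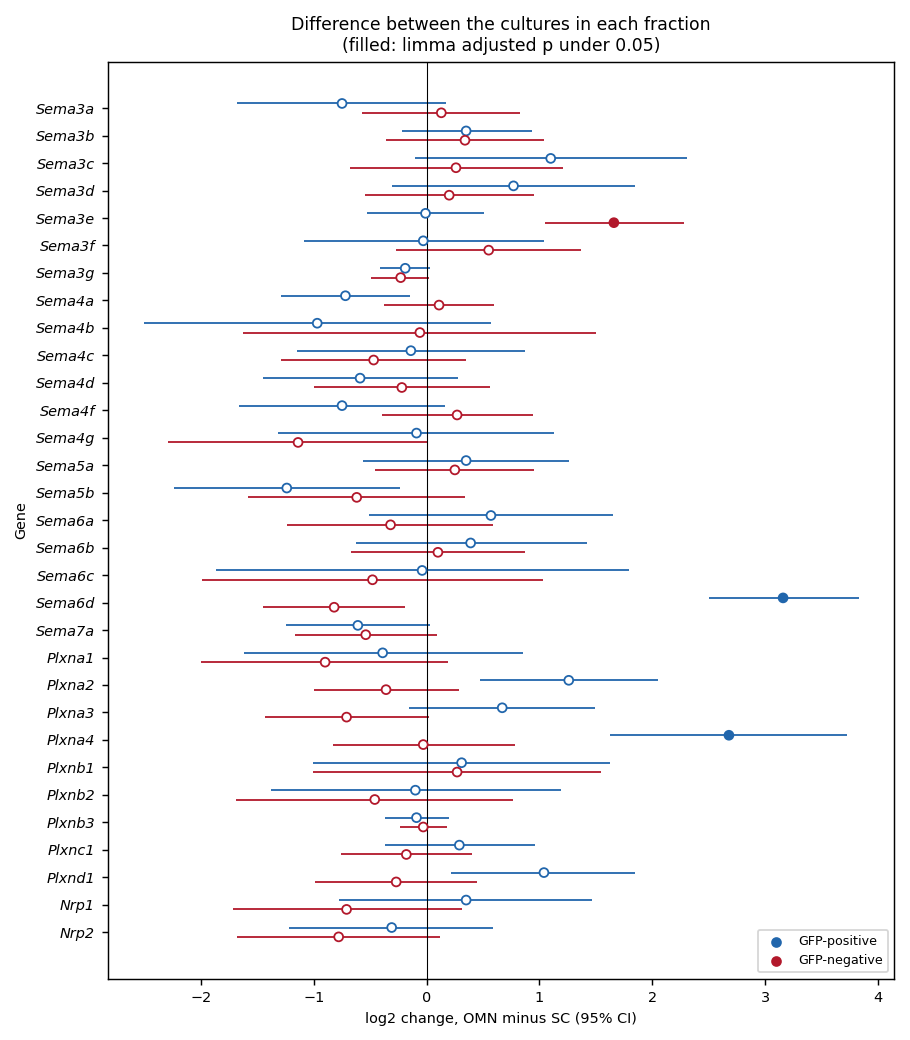
Log2 change between OMN and SC cultures (horizontal axis, OMN minus SC on the log2(RPKM + 1) scale) for each of the 31 genes, with 95% confidence intervals, in GFP-positive (blue) and GFP-negative (red) cells. Filled points passed the threshold: *Sema6d* (3.16) and *Plxna4* (2.68) in GFP-positive and *Sema3e* (1.66) in GFP-negative cells.

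The other A-family plexins were present in both motor neuron groups. *Plxna2* ran from 4.58 to 10.6 RPKM (median 7.37) in OMN and from 0.741 to 6.23 RPKM (median 2.51) in SC GFP-positive cells, with 4 of 6 OMN samples above all SC samples, and was not called (log2 change 1.26, SE 0.37, limma adjusted p = 0.192). In a fit of all 24 samples it was (limma adjusted p = 0.0351). *Plxna3* (5.44 to 14.7 RPKM in OMN, 2.57 to 12.2 in SC) and *Plxna1* (2.63 to 23.1 RPKM in OMN, 2.17 to 26.1 in SC) overlapped widely. As a share of the summed RPKM of the 4 A-family plexins, *Plxna4* made up 32.6% to 46.4% (median 38.4%) in OMN GFP-positive cells and 1.2% to 30.4% (median 6.26%) in SC GFP-positive cells. The highest SC shares were those of replicates 5 and 6. *Plxna1* made up 11.6% to 31.8% and 26.8% to 72.9% in the same groups, and 39.8% to 74.2% in GFP-negative cells of either culture. These shares are a description, with no test.

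**Figure D3:**
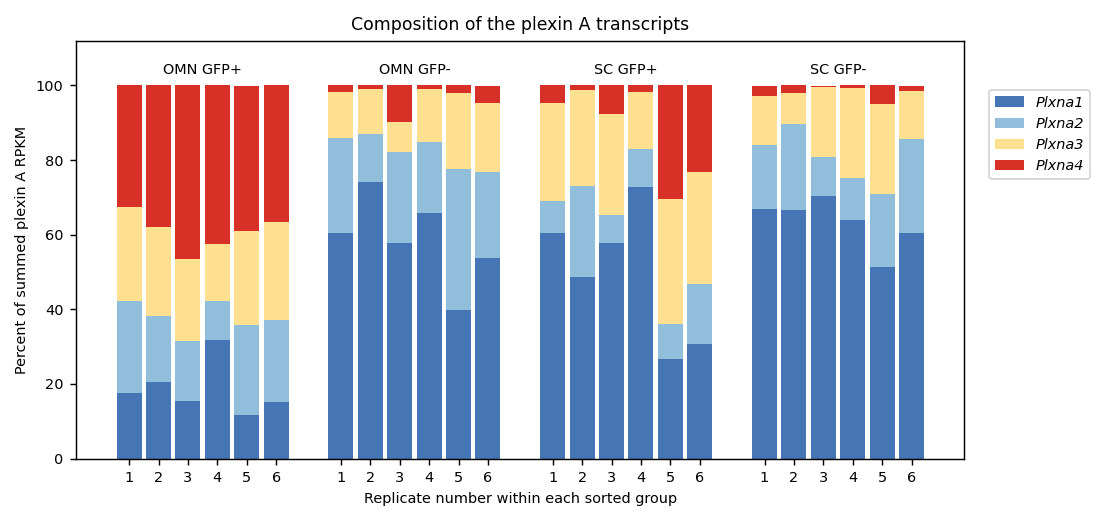
Share of each A-family plexin in the summed RPKM of *Plxna1*, *Plxna2*, *Plxna3* and *Plxna4* (vertical axis, percent), 1 bar per sample, in the 4 sorted groups of 6 replicates. *Plxna4* (red) makes up 32.6% to 46.4% in OMN GFP-positive samples and at most 9.87% in OMN and 5.01% in SC GFP-negative samples.

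Among the genes with higher SC values, none was called. The study called genes between these cell types with DESeq2, a test on read counts, so a gene called there need not be called here. *Sema5b*, a transmembrane semaphorin that inhibits axon growth, ran from 0.177 to 1.84 RPKM (median 0.488) in OMN and from 0.566 to 9.07 RPKM (median 3.40) in SC GFP-positive cells. The ranges overlapped and 4 SC samples lay above all OMN samples (log2 change -1.24, SE 0.46, limma adjusted p = 0.349). *Sema4a*, a class 4 ligand, was listed at 0 in 3 of 6 OMN samples with a highest value of 0.145 RPKM, and ran from 0 to 2.11 RPKM (median 0.912) in SC samples (log2 change -0.72, SE 0.26, limma adjusted p = 0.338), so that its OMN level was near that of a few reads. *Sema4b* was at 2.13 to 38.8 RPKM (median 14.0) in OMN and 5.32 to 72.9 RPKM (median 37.7) in SC GFP-positive cells (log2 change -0.97, SE 0.71, limma adjusted p = 0.675). *Plxnd1*, the receptor of *Sema3e*, did not overlap between the groups, at 0.295 to 5.91 RPKM (median 0.854) in OMN and 0.0379 to 0.293 RPKM (median 0.130) in SC GFP-positive cells. It lies below 1 RPKM in most samples and was not called (log2 change 1.04, SE 0.38, limma adjusted p = 0.333).

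Neither neuropilin was called between the motor neuron groups. *Nrp1*, the main co-receptor for *Sema3a*, was at 3.72 to 11.0 RPKM (median 6.15) in OMN and 0.157 to 12.4 RPKM (median 5.44) in SC GFP-positive cells, a log2 change of 0.35 with a 95% interval from -0.78 to 1.47 (limma adjusted p = 0.859). *Nrp2*, the main co-receptor for *Sema3f*, was at 4.42 to 9.74 RPKM (median 5.40) and 1.79 to 18.8 RPKM (median 9.01), a log2 change of -0.31 with an interval from -1.22 to 0.59 (limma adjusted p = 0.839). The lowest SC value of both was in replicate 4. Both intervals leave room for a log2 change of more than 1.

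In the GFP-negative cells, the only member called between the cultures was *Sema3e*, a secreted ligand, higher in OMN (1 of 31 members, beside 0.96% of the 22179 genes tested, 0.41% higher and 0.55% lower in OMN). The median log2 change of the members was -0.22, beside -0.04 over all genes. The unadjusted limma p was under 0.05 for 2 of the 31 members and for 2500 of the 22179 genes. Samples did not overlap for 1 member, beside 1.27% of all genes. The GFP-negative fractions also differed in other markers. *Sox9* and the endoderm marker *Sox17* were called lower in OMN, and the postmitotic neuron markers summed to 31.3 to 69.4 RPKM in OMN and 91.1 to 670 RPKM in SC samples, with no overlap. The 4 pluripotency markers, none of them called, summed to a median of 6400 RPKM (666 to 9860) in OMN and 231 RPKM (74.4 to 5720) in SC samples. The part of these cells in the *Sema3e* result was not tested. *Sema3e* lies on chromosome 5 (GRCm38, 14025276 to 14256689, plus strand). It ran from 2.14 to 7.17 RPKM (median 2.82) in OMN and from 0.0152 to 1.27 RPKM (median 0.509) in SC GFP-negative cells, with no overlap, and the highest SC value was that of replicate 4. The means were 4.03 ± 2.35 and 0.515 ± 0.456 RPKM (SD, n = 6 each), a ratio of 7.82 (log2 change 1.66, SE 0.30, limma adjusted p = 0.0049). The change was 1.43 within replicates 1 to 4 and 2.13 within replicates 5 and 6. Leaving out any 1 sample kept the call (limma adjusted p = 0.00148 to 0.0173), but not with an offset of 0.1 RPKM (0.0514) nor in replicates 1 to 4 alone (0.148).

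The second question was how the set changed from GFP-negative to GFP-positive cells within a culture, that is from the remaining cells to the sorted motor neurons. In OMN cultures 9 of the 31 members were called, 8 higher in GFP-positive cells (*Sema6d*, *Plxna4*, *Plxna3*, *Nrp2*, *Plxna2*, *Nrp1*, *Sema6a* and *Sema3d*) and 1 lower (*Sema3e*). Of all 22179 genes, 6.15% were called (3.81% higher and 2.34% lower). The median log2 change of the members was 0.60, beside 0 over all genes. The unadjusted limma p was under 0.05 for 16 of the 31 members and for 4015 of the 22179 genes. The fractions did not overlap for 7 members, beside 6.52% of all genes. Fractions with the same number deviated together, and with the pairs as a block within each culture 15 members were called, 13 higher and 2 lower. The 6.15% belongs to the fit without the block and is no background for this count. The members added by the block were *Plxna1*, *Plxnd1*, *Sema4g*, *Sema5a* and *Sema6c* among those higher and *Sema5b* among those lower, with limma adjusted p values from 0.0078 to 0.0492. All 8 postmitotic neuron markers also rose in this comparison, their summed level running from 31.3 to 69.4 RPKM in GFP-negative and from 1290 to 3140 RPKM in GFP-positive cells, while 3 of 4 pluripotency and 2 of 4 cycling markers fell. Their part in these results was not tested, and in bulk samples fewer cells of a type and less RNA per cell cannot be told apart.

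Among the receptors, *Plxna4* rose from a median of 0.114 RPKM (0.0441 to 0.817) in OMN GFP-negative cells to the 15.9 RPKM given above, with a log2 change of 3.79 (SE 0.39, limma adjusted p = 8.78e-07). *Plxna3*, which acts with *Nrp2* in responses to *Sema3f*, rose from 0.474 to 1.88 RPKM (median 0.791) to 5.44 to 14.7 RPKM (median 9.10; log2 change 2.41, SE 0.35, limma adjusted p = 9.74e-05). *Plxna2*, a receptor of *Sema6a*, rose from 0.807 to 2.46 RPKM (median 1.47) to 4.58 to 10.6 RPKM (median 7.37; log2 change 1.78, SE 0.31, limma adjusted p = 0.000757). In all of these plexins the fractions did not overlap, and GFP-positive cells were higher in 6 of 6 pairs. *Plxna1* was higher in 6 of 6 pairs as well, at 0.916 to 8.60 RPKM in GFP-negative and 2.63 to 23.1 RPKM in GFP-positive cells, and was called only with the block (log2 change 0.79, limma adjusted p = 0.0113, against 0.505 without it).

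Both neuropilins rose with them. *Nrp2* went from 0.0990 to 1.22 RPKM (median 0.803) to 4.42 to 9.74 RPKM (median 5.40; log2 change 2.13, SE 0.44, limma adjusted p = 0.0035). *Nrp1* went from 0.176 to 1.60 RPKM (median 1.14) to 3.72 to 11.0 RPKM (median 6.15; log2 change 1.90, SE 0.49, limma adjusted p = 0.0204). Neither overlapped between the fractions. The call of *Nrp1* was lost without the OMN GFP-negative replicate 1 (limma adjusted p = 0.0532) or the OMN GFP-positive replicate 6 (0.054), stood at the threshold without the OMN GFP-negative replicate 2 (0.05 after rounding), and was lost in replicates 1 to 4 alone (0.145).

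Among the ligands, the transmembrane *Sema6d* and *Sema6a* rose. *Sema6d* had a log2 change of 3.94 (SE 0.30, limma adjusted p = 1.33e-08), from a highest GFP-negative value of 0.562 RPKM to a lowest GFP-positive value of 11.0 RPKM. *Sema6a*, the most abundant class 6 member over all samples, ran from 1.37 to 7.02 RPKM (median 1.65) in GFP-negative and from 5.42 to 20.1 RPKM (median 12.4) in GFP-positive cells (log2 change 1.90, SE 0.44, limma adjusted p = 0.01). It was not called in replicates 1 to 4 alone (log2 change 1.88, limma adjusted p = 0.144). The ranges overlapped through 1 high GFP-negative sample, replicate 2, whose GFP-positive partner was the highest of its group. The secreted *Sema3d* ran from 0 to 0.690 RPKM (median 0.216) in GFP-negative and from 0.663 to 8.85 RPKM (median 2.97) in GFP-positive cells (log2 change 1.67, SE 0.36, limma adjusted p = 0.00598). Its change was 1.14 within replicates 1 to 4, where it was not called (limma adjusted p = 0.154), and 2.71 within replicates 5 and 6.

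*Sema3e* went the other way. It was at 0 to 1.01 RPKM (median 0.420) in OMN GFP-positive cells and at the 2.14 to 7.17 RPKM given above in the GFP-negative cells of the same cultures, with no overlap and a lower value in the GFP-positive cells of 6 of 6 pairs (log2 change -1.74, SE 0.30, limma adjusted p = 0.000616). The change was -1.77 within replicates 1 to 4 and -1.66 within replicates 5 and 6. Of the summed RPKM of the 7 class 3 semaphorins, *Sema3e* made up 19.6% to 70.6% (median 52.6%) in OMN GFP-negative cells and 0% to 13.7% (median 4.92%) in OMN GFP-positive cells, where *Sema3c* (median 39.4%) and *Sema3d* (median 37.4%) made up most. OMN GFP-negative cells held the highest level of the 4 groups, and the ranges of the other 3 groups overlapped.

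**Figure D4:**
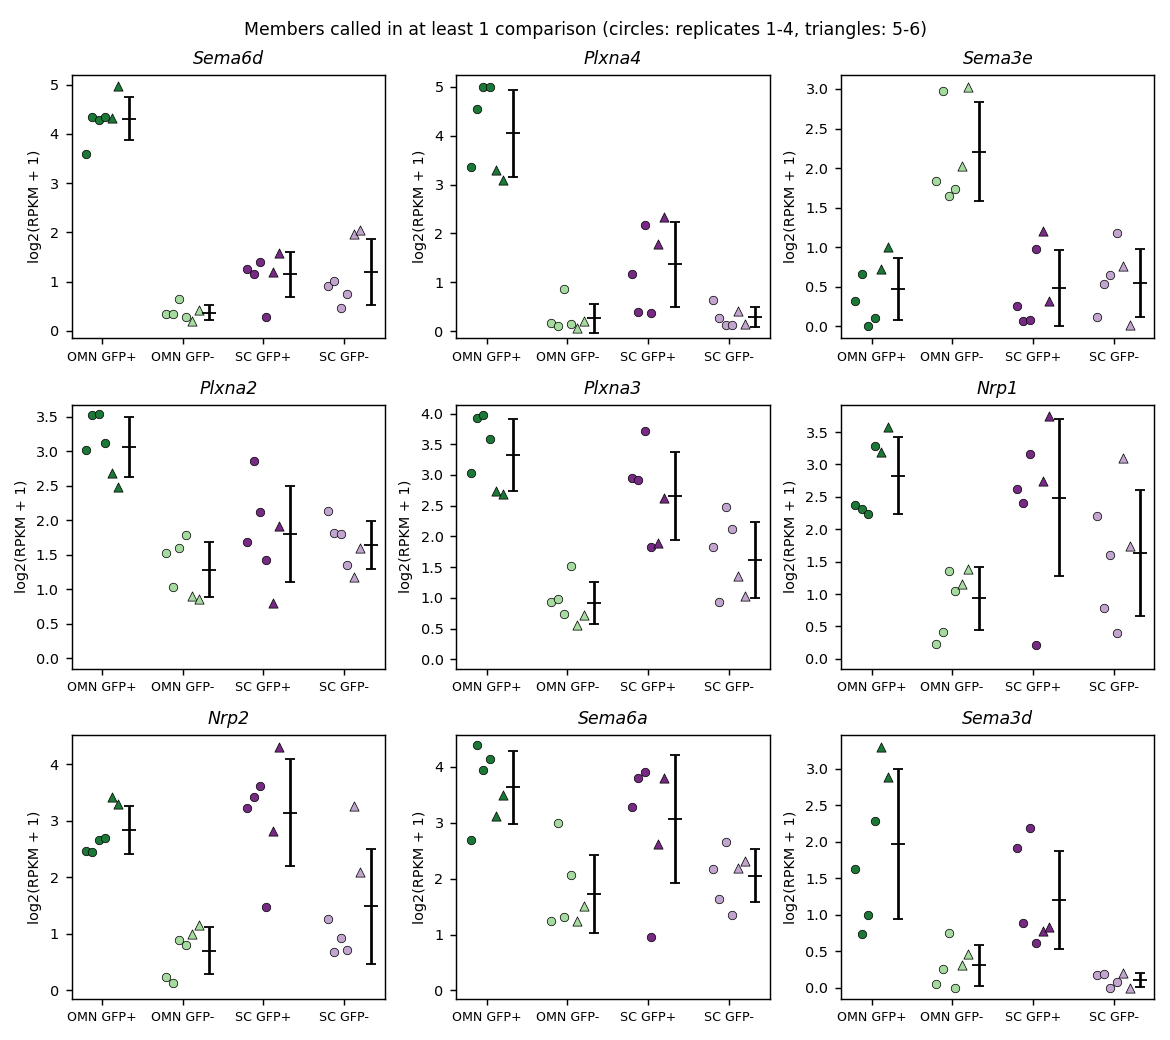
Levels of the 9 genes called in at least 1 comparison, as log2(RPKM + 1) (vertical axis), in the 4 sorted groups (horizontal axis), with circles for replicates 1 to 4, triangles for replicates 5 and 6, and the mean with SD beside the points (n = 6). *Sema6d* and *Plxna4* are high in OMN GFP-positive samples and below 1 on this scale in OMN GFP-negative samples, *Sema3e* is high in OMN GFP-negative samples, and *Nrp1* and *Nrp2* are high in the GFP-positive cells of both cultures except SC replicate 4.

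In SC cultures no member was called between the fractions with limma, beside 1.23% of all genes (0.397% higher and 0.83% lower in GFP-positive cells). The unadjusted limma p was under 0.05 for 8 of the 31 members and for 2315 of the 22179 genes. The median log2 change of the members was 0.36, beside 0 over all genes. Leaving out the samples that stood apart changed this count. Without both libraries of SC replicate 4, *Nrp2* (log2 change 1.83, limma adjusted p = 0.0137) and *Sema4f* (1.34, adjusted p = 0.0442) were called, both higher in GFP-positive cells, and without both libraries of SC replicate 2, *Sema4f* was (1.48, adjusted p = 0.0115). With the pairs as a block within each culture, *Nrp2* was called (limma adjusted p = 0.0271), and with all samples kept a filter of 1 RPKM in 6 samples or the replicate set as a term called 2 members. The 1.23% belongs to the main fit and is no background for these counts. The summed level of the 8 postmitotic neuron markers was 91.1 to 670 RPKM in SC GFP-negative and 78.4 to 2120 RPKM in SC GFP-positive cells, and 4 of the 8 rose, while the endoderm markers *Sox17* and *Ttr* fell. Their part was not tested.

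*Nrp2* ran from 0.598 to 8.56 RPKM (median 1.14) in SC GFP-negative and from 1.79 to 18.8 RPKM (median 9.01) in SC GFP-positive cells, and was higher in 5 of 6 pairs (log2 change 1.66, SE 0.44, limma adjusted p = 0.0632). The exception was replicate 5, at 8.56 RPKM in GFP-negative and 6.04 RPKM in GFP-positive cells. *Sema4f*, a class 4 transmembrane ligand, ran from 0 to 0.712 RPKM (median 0.134) in GFP-negative and from 0 to 4.98 RPKM (median 1.83) in GFP-positive cells, a log2 change of 1.24 that was not called (SE 0.32, limma adjusted p = 0.0611). *Sema3d* was the only member whose SC fractions did not overlap (1 of 31, beside 0.469% of all genes), at 0 to 0.148 RPKM against 0.536 to 3.56 RPKM, a log2 change of 1.10 (SE 0.36, limma adjusted p = 0.182). All its GFP-negative values lay at the level of a few reads. *Sema6a* was at 1.55 to 5.30 RPKM and 0.933 to 14.0 RPKM, higher in 5 of 6 pairs, and *Nrp1* at 0.313 to 7.59 RPKM and 0.157 to 12.4 RPKM, higher in 4 of 6.

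**Figure D5:**
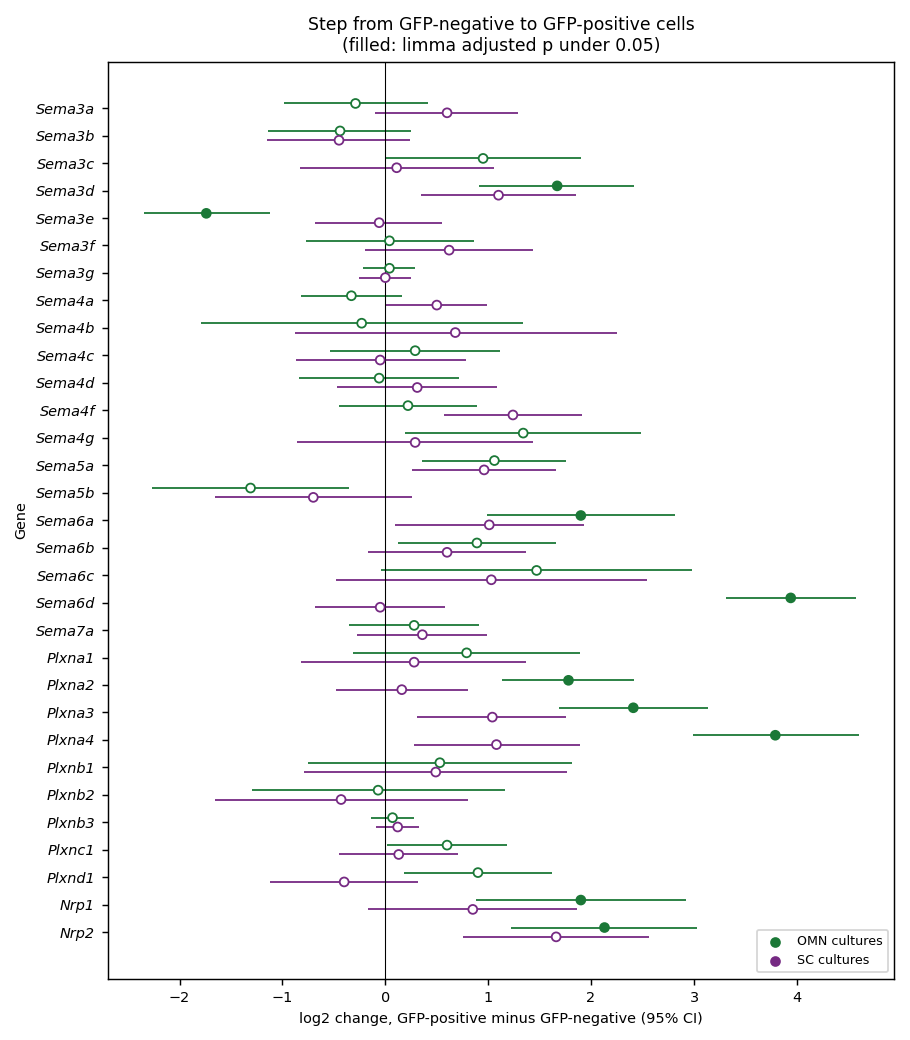
Log2 change from GFP-negative to GFP-positive cells (horizontal axis, log2(RPKM + 1) scale) for each of the 31 genes, with 95% confidence intervals, in OMN (green) and SC (purple) cultures. Filled points passed the threshold: 8 genes to the right and *Sema3e* to the left in OMN cultures, and none in SC cultures.

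Whether the step between the fractions differed between the cultures was tested as an interaction, in the same 24 samples as the steps themselves. It was called for 2 of 31 members, beside 0.32% of all genes (0.262% with the larger change toward GFP-positive cells in OMN and 0.0586% in SC cultures). The median interaction of the members was 0.33, beside 0.01 over all genes. The unadjusted limma p was under 0.05 for 8 of the 31 members and for 1582 of the 22179 genes. For *Sema6d* the step was 3.94 in OMN and -0.05 in SC cultures, a difference of 3.99 (SE 0.43, limma adjusted p = 1.51e-05) that was called in all fits that left out a sample. For *Plxna4* it was 3.79 and 1.08, a difference of 2.71 (SE 0.55, limma adjusted p = 0.0255). This call was lost in 5 of 24 fits that left out 1 sample (without OMN GFP-negative replicate 1, 2 or 6, OMN GFP-positive replicate 2 or SC GFP-negative replicate 1, limma adjusted p = 0.0501 to 0.0576), without both libraries of SC replicate 2 (0.0572), with an offset of 0.1 RPKM (0.0944) and in replicates 1 to 4 alone (0.122).

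With the pairs as a block within each culture, the interaction was called for 4 members, with *Sema3e* (-1.67, limma adjusted p = 0.00915, against 0.0998 without the block) and *Plxna2* (1.62, adjusted p = 0.0218, against 0.139) added. The share of all genes called with this block is not given here. For *Nrp2* the steps were 2.13 in OMN and 1.66 in SC cultures, and the difference of 0.47 had a 95% interval from -0.81 to 1.75 (limma adjusted p = 0.909). For *Nrp1* the difference was 1.05, with an interval from -0.39 to 2.49 (limma adjusted p = 0.822). The neuropilin steps were therefore not shown to differ between the cultures, and the intervals do not show that they were alike.

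The remaining members were not called in any comparison. The B-family receptors *Plxnb1* and *Plxnb2* were at or above 1 RPKM in every sample, with *Plxnb2* at medians of 7.07 and 8.16 RPKM in OMN and SC GFP-positive cells and of 6.77 and 8.80 RPKM in OMN and SC GFP-negative cells, and ranges of 1.55 to 37.5 RPKM over all samples. An exon of *Plxnb1* overlaps the gene model *Gm7628* on the other strand, which was listed at no more than 1.48 RPKM. *Plxnc1* was at 0.454 to 3.93 RPKM over all samples, and its ligand *Sema7a* at 0 to 3.63 RPKM with medians of 0.217 and 0.961 RPKM in OMN and SC GFP-positive and 0.0244 and 0.316 RPKM in OMN and SC GFP-negative cells. *Sema3c*, the class 3 member with the highest mean, was at 1.81 to 5.91 RPKM (median 2.91) in OMN GFP-positive cells and at 0.0359 to 9.11 RPKM (median 0.343) in SC GFP-positive cells. Its SC mean of 2.01 RPKM was carried by replicate 6, its highest sample. Among the class 3 ligands, *Sema3a* reached medians of 0.0869 to 0.412 RPKM and *Sema3f* of 0.317 to 0.884 RPKM over the 4 groups. *Sema3a* reached 7.20 RPKM in SC GFP-positive replicate 6. *Sema3c* and *Sema3d* had medians of 2.91 and 2.97 RPKM in OMN and of 0.343 and 0.819 RPKM in SC GFP-positive cells. In both GFP-positive groups these medians lay below those of *Nrp1* and *Nrp2*.

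Of 44 genes that act with or below these receptors, taken from general knowledge, 8 were called between the fractions of OMN cultures, 7 higher and 1 lower in GFP-positive cells, beside 6.15% of all genes. The 6 with the largest changes all rose. They were the adhesion molecule *Cntn2* (log2 change 4.35, SE 0.62), the collapsin response mediators *Crmp1* (3.61, SE 0.57), *Dpysl3* (3.40, SE 0.49) and *Dpysl4* (2.52, SE 0.64), the neuropilin partner *L1cam* (3.07, SE 0.50) and *Cdk5r1* (3.01, SE 0.52), the activator of the kinase Cdk5. Their limma adjusted p values ran from 7.88e-05 to 0.0182. The median log2 change of the 44 genes was 0.52, beside 0 over all genes. Several of these are also known as genes of young neurons in general. In SC cultures 2 were called, beside 1.23% of all genes. They were *Dpysl3*, which was higher (2.04, SE 0.49, limma adjusted p = 0.0331), and the VEGF receptor *Flt1*, which was lower in GFP-positive cells (-1.57, SE 0.33, adjusted p = 0.014). The median was 0.30, beside 0 over all genes. Between OMN and SC GFP-positive cells 1 was called, beside 0.603% of all genes, the small GTPase *Rras*, on which plexins act, higher in OMN (log2 change 1.84, SE 0.29, limma adjusted p = 0.01; median of the list 0.03, beside -0.04 over all genes). Between the GFP-negative cells and in the interaction none of the 44 was called with limma. The unadjusted limma p was under 0.05 for 9 and 5 of them, beside 2500 and 1582 of the 22179 genes.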

How the data were processed

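The deposited table gives RPKM per gene for 24 bulk SMART-seq2 libraries. The authors mapped reads to mm10 with HISAT2 2.0.3 and computed RPKM with rpkmforgenes, and the processing notes also name DESeq2 1.12.4, which was not used here. No counts were used. Amplified reads without molecular identifiers are not independent molecules. The members, gene lists, alternatives and searched promoter words were chosen with earlier results of these data known. Named members are those called in any comparison, those the study names, the neuropilins and the highest member of each class, and any other member was named after its values were seen.

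Log2(RPKM + 1) was fitted across all genes above 0 in at least 2 samples with limma 3.58.1 (R 4.3.3, mean-variance trend, Benjamini-Hochberg adjustment, threshold 0.05). OMN and SC GFP-positive cells were compared in those 12 samples (19240 genes), and the GFP-negative cells, the fractions and the interaction in all 24 samples (22179 genes). These comparisons share samples. The fit was tested on simulated data, with samples drawn independently, unlike the paired fractions. The changed genes were drawn from those with a mean log2(RPKM + 1) above 1, so the rates do not cover lower members. A simulated log2 change of 2 was called for 49.5% of changed genes between GFP-positive cells. It was called for 61.5% between OMN fractions and for 18% in the interaction. A member that was not called may therefore still differ. Fractions that shared a culture and a number deviated together from their group means (r from 0.39 to 0.76 in OMN and from 0.43 to 0.67 in SC pairs, over 10676 genes), so numbers were taken to pair the fractions. Alternatives changed the offset, filter, scaling, weights, replicate sets, pairing and single samples. Depth was estimated from RPKM steps, and 95.8% to 97.8% of low values lay within 2% of a whole read. Positions are from GENCODE M21 (GRCm38), promoters from RefSeq. Python 3.11.15, numpy, pandas and matplotlib were used for summaries and figures.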

Additional observations from a re-analysis of the deposited data

Results flagged for a closer look

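By the interaction test, the change between sorted fractions differed from OMN to SC cultures for *Sema6d* (3.99 on the log2 scale) and *Plxna4* (2.71). Single samples far from their group were also sought in combinations of member and group with a value above 1 RPKM. A low gene could enter through its high sample alone, so a chance rate of 1 in 20 does not apply. *Sema3b* and *Sema4c* in OMN GFP-positive, *Sema6b* in OMN GFP-negative and *Sema7a* in SC GFP-negative cells entered in this way. Of the 96 combinations, 9 had a single sample far from the other 5. They were *Sema3b* in OMN GFP-positive replicate 3 (2.70 RPKM) and OMN GFP-negative replicate 3 (5.19 RPKM), *Sema3f* in OMN GFP-positive replicate 4 (5.58 RPKM), *Sema4c* in OMN GFP-positive replicate 4 (5.54 RPKM) and SC GFP-positive replicate 3 (5.41 RPKM), *Sema6b* in OMN GFP-negative replicate 4 (1.30 RPKM), and *Sema6c* (9.18 RPKM) and *Sema7a* (3.63 RPKM) in SC GFP-negative replicate 3, all on the high side. *Sema6d* in SC GFP-positive replicate 4 (0.218 RPKM) was on the low side. That sample resembled its GFP-negative partner in the markers given above, and 9 of the 31 members had their lowest value of the group there. The share of all genes lowest in that sample was not computed. None of the 8 high values belongs to replicates 5 and 6, which were sequenced more deeply. SC GFP-negative replicate 3, which held those of *Sema6c* and *Sema7a*, was the shallowest sample (752529 reads).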

How the results depend on the processing

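Of 14 calls of single members, 8 held under all alternatives, and none of the 40 member changes with an unadjusted p under 0.05 changed direction. Members called between OMN and SC GFP-positive cells numbered 2, and 1 in replicates 1 to 4 alone, 1 with the replicate block and 1 to 2 with each sample left out. The member lost under that block was *Plxna4* (limma adjusted p = 0.0967). Across the cultures, samples with the same number deviated together in replicates 5 and 6 (r from 0.59 to 0.73). In replicates 1 to 4 they did so less or not at all (r from -0.19 to 0.48). Between GFP-negative cells the count of 1 fell to 0 with an offset of 0.1 RPKM and to 0 in replicates 1 to 4, and stayed at 1 with each sample left out. Between the OMN fractions it was 9, 6 in replicates 1 to 4, 12 with sample weights, 15 with the replicate block within culture and 8 to 10 with each sample left out. Between the SC fractions it was 0, 1 with an offset of 0.1 RPKM, 2 with a filter of 1 RPKM in 6 samples, 1 with sample weights, 2 with the replicate set as a term, 2 with the shared replicate block, 1 with the block within culture, 2 without both SC libraries of replicate 4, 1 without both of replicate 2 (both chosen after seeing the data) and 0 to 2 with each sample left out. For the interaction it was 2, 1 with an offset of 0.1 RPKM, 1 in replicates 1 to 4, 4 with the block within culture, 1 without both SC libraries of replicate 2 and 1 to 3 with each sample left out. The block changed no other count by over 1.5 times. The cause of these changes was not tested, other than that replicates 1 to 4 alone hold fewer samples and that the filter tests fewer genes. Members under 1 RPKM rest on few reads. The shares of all genes given above belong to the main fits, so the counts under the alternatives have no background beside them.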
